A study of Homo sapiens with 8 samples.

Results

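The expression of 32 genes that repair mismatches, double-strand breaks and interstrand cross-links was followed in A549 cells exposed to EEDS or to helveticoside. The genes were given as a list of symbols covering mismatch repair, the BRCA proteins, 5 strand exchange factors, RAD52 and the RAD54 proteins, 2 helicases, end resection and the Fanconi anemia pathway. All 32 were matched through the transcript identifiers on the arrays, among 19046 genes tested, and 30 of them were well above background on all 8 arrays. Of all genes tested, 11498 were well above background on all 8 arrays and 4269 on none. The shares of all genes given below include these dim genes, so they are not shares of genes as bright as the members. A549 is an established human lung carcinoma line, EEDS is an extract of Descurainia sophia seeds made with ethanol, and helveticoside is a cardiac glycoside contained in it. Cells received the vehicle or 1.25, 5 or 20 μg/mL EEDS in one series and the vehicle or 3.75, 15 or 60 nM helveticoside in the other. The labels give 48 h of exposure, and the methods of the study state a shorter time for the array experiment. RNA from 3 cultures was pooled for each condition and hybridized to 1 single-dye Agilent array, so each series held 4 arrays, each dose had 1 array, and no replicate error exists for a single dose.

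Mismatch repair recognizes base mispairs left by replication through MutS heterodimers and passes them to MutL heterodimers and an exonuclease. Homologous recombination repairs broken DNA from the sister chromatid: the MRE11, RAD50 and NBN complex trims the ends, and BRCA1, PALB2, BRCA2 and a set of accessory factors then prepare the exposed strand for pairing with its intact copy. The Fanconi core complex attaches ubiquitin to FANCD2 and FANCI at stalled, cross-linked forks, and much of the pathway is transcribed with the S phase program in dividing cells.

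A normalized log2 signal is given for each array, and a log2 ratio compares a treated array with the vehicle control of its own series. A log2 ratio of -1 is a 2-fold lower signal. A dose trend is the slope of the log2 signal per dose step (vehicle, low, middle, top), fitted with limma over all 8 arrays, with the scatter of the arrays about the trend lines in place of replicates. Its p-value was adjusted over all 19046 genes, and a gene fell or rose where the adjusted p was under 0.05.

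In all, 25 of the 32 repair genes lay below the vehicle control at both top doses, beside 36.4% of all genes. FANCF, FANCG, RAD51D, NBN and FANCD2, 5 of the 32, fell with dose under both agents, beside 4.69% of all genes. FANCF, the flexible adaptor of the Fanconi core complex, was the most reduced member at 20 μg/mL EEDS, at 23.2-fold lower. It was 13.1-fold lower at 60 nM helveticoside. On the brightest probe of each gene, which was the one used, none of the 32 genes rose under either agent. On these probes none was more than 2-fold higher on any treated array. A dimmer FANCA probe had a log2 ratio of 2.15 at 20 μg/mL EEDS. In RNA pooled from whole cultures, fewer cells expressing a gene and less of its RNA per cell cannot be told apart.

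The DNA just before the annotated start is shown for the 4 genes with a window in the table used that fell under both agents, and for MSH3, whose sequence holds one of the motifs searched. Each sequence is 250 bases, 5′ to 3′ in the direction of transcription, from RefSeq on GRCh38.p14, and capitals mark a searched motif. FANCF is at chr11:22625824-22626073 on the minus strand, FANCG at chr9:35079943-35080192 on the minus strand, RAD51D (the farther upstream of its 2 windows) at chr17:35119861-35120110 on the minus strand, FANCD2 at chr3:10026187-10026436 on the plus strand and MSH3 at chr5:80654402-80654651 on the plus strand.
FANCF: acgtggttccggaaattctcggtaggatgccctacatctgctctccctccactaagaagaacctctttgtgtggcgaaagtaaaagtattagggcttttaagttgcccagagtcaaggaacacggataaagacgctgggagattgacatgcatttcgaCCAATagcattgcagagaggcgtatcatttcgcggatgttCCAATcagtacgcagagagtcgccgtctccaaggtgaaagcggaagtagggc
FANCG: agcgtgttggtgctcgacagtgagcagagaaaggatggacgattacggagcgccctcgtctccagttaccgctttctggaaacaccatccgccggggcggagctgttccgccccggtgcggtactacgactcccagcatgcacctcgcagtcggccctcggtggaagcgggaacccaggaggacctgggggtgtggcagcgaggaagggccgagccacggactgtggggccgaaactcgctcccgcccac
RAD51D: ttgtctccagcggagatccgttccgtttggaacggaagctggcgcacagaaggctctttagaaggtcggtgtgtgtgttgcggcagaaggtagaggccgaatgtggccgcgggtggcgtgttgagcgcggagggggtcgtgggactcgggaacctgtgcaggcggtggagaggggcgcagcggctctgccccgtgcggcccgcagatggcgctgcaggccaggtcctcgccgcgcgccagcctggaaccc
FANCD2: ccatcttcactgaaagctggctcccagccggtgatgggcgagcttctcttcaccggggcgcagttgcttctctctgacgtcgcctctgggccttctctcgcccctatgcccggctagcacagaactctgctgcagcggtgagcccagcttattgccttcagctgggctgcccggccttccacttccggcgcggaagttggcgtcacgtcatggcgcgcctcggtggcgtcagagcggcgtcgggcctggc
MSH3: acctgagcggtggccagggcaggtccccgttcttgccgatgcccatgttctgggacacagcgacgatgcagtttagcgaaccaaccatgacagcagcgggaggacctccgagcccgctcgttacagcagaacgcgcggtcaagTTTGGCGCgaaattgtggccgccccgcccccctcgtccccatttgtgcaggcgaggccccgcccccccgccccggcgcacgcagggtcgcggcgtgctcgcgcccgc

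Windows from 250 bases before to 50 bases after each start were searched on both strands for E2F letters (TTTGGCGC or TTTCCCGC), CCAAT, the cell cycle element CHR (TTTGAA) and EGR letters (GCGTGGGCG or GCGGGGGCG). The table held 42 windows of 29 members, with none matched for NBN, RAD54B and FANCI, and 35116 windows in all. E2F letters occurred in 5 of the 42 members' windows and in 2.27% of all windows. MSH3 held them at position -107 from the start, FANCC at -46, FANCD2 at -2, MSH6 at 4 and XRCC2 at 22, so that FANCC and XRCC2, which had no called trend, shared them with 3 genes that did. CCAAT occurred in 14 of the 42 windows and in 34.6% of all windows, and the FANCF sequence above holds it at -92 and -52. CHR letters occurred in 2 of the 42 windows and 15.2% of all windows, and EGR letters in 4 of the 42 and 5.77% of all. No matches of different motifs overlapped in these windows. A match describes the letters and is not a binding site.

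Probe spots had a median signal of 182 to 214 on the EEDS arrays and 223 to 278 on the helveticoside arrays, over a median background of 27 to 34, and 54.5% to 64.9% of probes were well above background. All 8 markers of the A549 line were well above background on every array, and of 8 markers of other cell types 3 were so on every array and 3 on none. The summed normalized signal of the A549 markers went from 1007227 on the EEDS vehicle control to 592805 at 20 μg/mL and from 959280 to 484848 at 60 nM. KRT18, KRT19 and CDH1 fell under both agents, and KRT8 under EEDS. The summed signal of the other markers went from 816 to 1326 under EEDS and from 683 to 1027 under helveticoside, from the vehicle control to the top dose, and none of their trends was called. The part of this shift in the results for the repair genes was not tested. The 2 vehicle controls differed by more than 2-fold for 10.4% of all genes and for 2 members. The control of the helveticoside series was higher by 1.16 on the log2 scale for MSH3 and by 1.65 for XRCC2. Agent and series cannot be told apart in this comparison.

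At the low doses, 21 of the 32 members lay below vehicle under EEDS and 27 under helveticoside, beside 44.6% and 45.3% of all genes. Few of these members passed 2-fold. At 1.25 μg/mL EEDS, 3 of the 32 members were more than 2-fold lower, beside 3.66% of all genes, and these were RAD51D, FANCF and FANCG. At 3.75 nM helveticoside, 1 member was more than 2-fold lower, BRCA1, beside 4.31% of all genes. No member was more than 2-fold higher, beside 4.22% of all genes at the low EEDS dose and 3.38% at the low helveticoside dose.

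At 5 μg/mL EEDS, 7 members were more than 2-fold lower, beside 8.47% of all genes. They were MSH6, EXO1, PALB2, RAD51B, RAD51D, FANCF and FANCG. At 15 nM helveticoside, 8 members were more than 2-fold lower, beside 8.06% of all genes. MSH6, EXO1, RAD51B, RAD51D and FANCF were again among them, with BRCA1, NBN and FANCD2. The share of all genes more than 2-fold higher was 7.33% at the middle EEDS dose and 7.08% at the middle helveticoside dose, and no member reached it.

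At 20 μg/mL EEDS, 10 of 32 members (31.2%) were more than 2-fold lower, beside 14.5% of all genes, and none was more than 2-fold higher, beside 13.3%. At 60 nM helveticoside, 13 of 32 (40.6%) were more than 2-fold lower, beside 12.8%, and none was more than 2-fold higher, beside 10.8%. BRCA1, PALB2, RAD51D, NBN, FANCF, FANCG, FANCL and FANCD2, 8 of the 32, were more than 2-fold lower at both top doses, beside 9.66% of all genes. Of these 8, only RAD51D, FANCF and FANCG stayed more than 2-fold lower at both top doses under every alternative processing. The helveticoside count depended on the starting values, and was 5 with the values as the authors processed them. Against the vehicle control of the other series, the counts were 16 for EEDS and 8 for helveticoside.

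The dose trend fell for 6 members under EEDS, beside 7.85% of all genes, and for 7 under helveticoside, beside 5.80%. No member rose, beside 7.27% and 5.48% of all genes. At an unadjusted p under 0.05 there were 13 members under EEDS, beside 33.4% of all genes, and 12 under helveticoside, beside 29.8%. The limma fit to the 4 arrays of a series alone, or without 1 dose of each series, called 0 members with fewer residual degrees of freedom. The share of all genes called in those fits is not given.

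**Figure D1:**
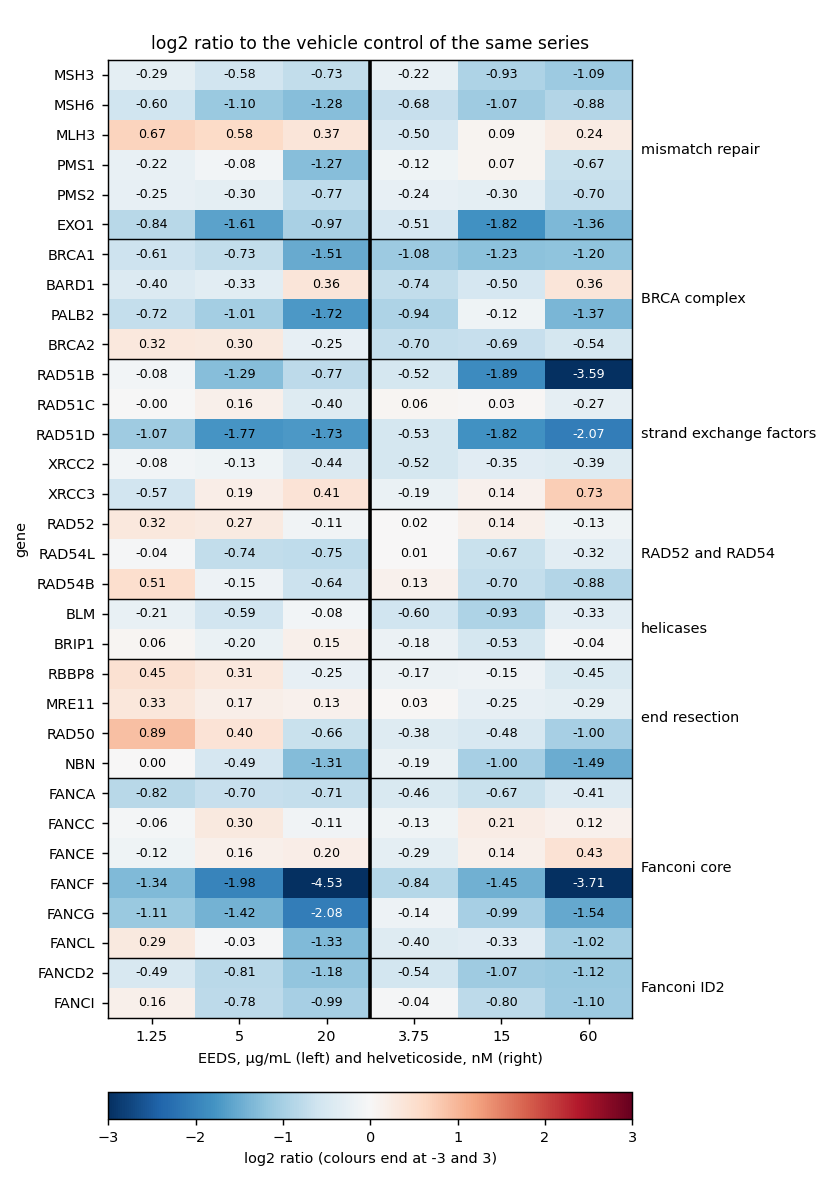
Log2 ratio of each of the 32 repair genes (rows, grouped by role) at 3 doses of EEDS in μg/mL (left columns) and 3 doses of helveticoside in nM (right columns), each against the vehicle control of its series, with 1 array per cell of the map. Blue is lower than vehicle, and colours end at -3 and 3; the FANCF row is the darkest, reaching -4.53 and -3.71 at the top doses.

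Among the mismatch repair genes, MSH6 fell under EEDS and MSH3 under helveticoside, and 5 of the 6 lay below vehicle at each top dose. MSH6, the MutS subunit that reads single mispairs and small loops, measured 13.97 without EEDS and 13.38, 12.87 and 12.69 with rising dose (1.25, 5 and 20 μg/mL). Without helveticoside it measured 14.06, and with rising dose (3.75, 15 and 60 nM) 13.38, 12.99 and 13.17. All 6 treated arrays were below their vehicle controls, and the lowest helveticoside array was the middle dose. The slope of MSH6 was -0.44 per step under EEDS (SE 0.0988, limma adjusted p = 0.0418) and -0.30 under helveticoside (limma adjusted p = 0.110).

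MSH3, the MutS subunit for larger loops, measured 9.66, 9.37, 9.07 and 8.93 from the vehicle control to the top dose of EEDS. From the vehicle control to 60 nM helveticoside it measured 10.81, 10.60, 9.88 and 9.72. Every step was downward in both series, while the whole helveticoside series sat above the EEDS series. The MSH3 slope was -0.40 per step under helveticoside (SE 0.0632, limma adjusted p = 0.0254) and -0.25 under EEDS (limma adjusted p = 0.0548). At 60 nM the MSH3 log2 ratio was -1.09 against its own vehicle control and 0.07 against the vehicle control of the EEDS series.

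PMS2, a MutL subunit, moved less. It measured 11.11, 10.85, 10.81 and 10.33 in the EEDS series and 11.51, 11.27, 11.21 and 10.81 in the helveticoside series. Each dose was lower than the one before in both series, but the trends were not called, with limma adjusted p = 0.0514 under EEDS and 0.0719 under helveticoside. PMS2 has near-identical pseudogene copies, so its 4 probes may also have measured their transcripts. The PMS1 log2 ratio, of another MutL subunit, stayed between -0.22 and 0.07 at the low and middle doses and was -1.27 at 20 μg/mL EEDS and -0.67 at 60 nM helveticoside. A second PMS1 probe gave 0.74, 0.60 and -0.61 with rising EEDS dose and -0.17, -0.13 and -0.52 with rising helveticoside dose. The course of PMS1 under EEDS thus depended on the probe. EXO1, the exonuclease of mismatch repair, was lowest at the middle doses, with log2 ratios of -1.61 at 5 μg/mL and -1.82 at 15 nM against -0.97 and -1.36 at the top doses. MLH3, a MutL subunit with a part in meiosis, had log2 ratios from -0.50 to 0.67 and was above vehicle at both top doses.

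Of the BRCA complex genes, BRCA1 and PALB2 were more than 2-fold lower at both top doses without a called trend. BRCA1, the ubiquitin ligase that promotes recombination, measured 9.91, 9.30, 9.18 and 8.40 in the EEDS series. In the helveticoside series it measured 10.27 on the vehicle control and then 9.19, 9.05 and 9.07. Its log2 ratio was thus nearly the same at every helveticoside dose, at -1.08, -1.23 and -1.20, and was lower step by step under EEDS, at -0.61, -0.73 and -1.51. Its limma adjusted p was 0.0675 under EEDS and 0.126 under helveticoside.

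PALB2, which bridges BRCA1 and BRCA2, measured 8.12, 7.40, 7.11 and 6.39 in the EEDS series and 7.33, 6.39, 7.20 and 5.95 in the helveticoside series. The array at 15 nM lay near the vehicle control, between lower arrays at 3.75 and 60 nM. Its fold reduction was 3.30 at 20 μg/mL EEDS and 2.59 at 60 nM helveticoside, with limma adjusted p = 0.0963 and 0.292 for the trends. BARD1, the obligate partner of BRCA1, measured 10.01, 9.61, 9.69 and 10.38 in the EEDS series and 10.02, 9.28, 9.52 and 10.38 in the helveticoside series. BARD1 was below vehicle at the low and middle doses and above it at both top doses, where its log2 ratio was 0.36 under each agent. BRCA2, which binds PALB2 and acts after resection, was dim, with log2 levels between 5.84 and 6.55. It was not well above background at 3.75 nM helveticoside, where it was at least 1.50-fold lower than vehicle, and its other log2 ratios lay between -0.69 and 0.32.

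The strand exchange factors went separate ways. RAD51D fell under both agents, RAD51B under helveticoside, and RAD51C, XRCC2 and XRCC3 had no called trend. RAD51D measured 9.13, 8.06, 7.35 and 7.40 in the EEDS series and 8.97, 8.44, 7.15 and 6.90 in the helveticoside series. The middle and top doses of EEDS gave nearly the same level, while helveticoside gave the lowest level at its top dose. The RAD51D slope was -0.59 per step under EEDS (SE 0.143, limma adjusted p = 0.0492) and -0.75 under helveticoside (limma adjusted p = 0.0341). The EEDS call was lost with normexp correction (limma adjusted p = 0.0526), and both calls were lost with the scanned signal (0.0513 and 0.0505).

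RAD51B, a subunit of the same complex as RAD51D, measured 7.27, 7.19, 5.98 and 6.49 in the EEDS series. In the helveticoside series it measured 7.57, 7.04 and 5.67, and at 60 nM it was not well above background, with a measured value of 3.98. At 60 nM it was therefore at least 4.26-fold lower than vehicle. The RAD51B slope under helveticoside was -1.21 per step (SE 0.186, limma adjusted p = 0.0248) and became -0.76 when the dim value was raised to the lowest signal well above background, with limma adjusted p = 0.00569. With the authors' processed values it was -0.30 (limma adjusted p = 0.154) and the log2 ratio at 60 nM was -0.79. Under EEDS the slope was -0.35 (limma adjusted p = 0.253).

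RAD51C, which takes part in a complex with RAD51B and RAD51D and in another with XRCC3, measured 11.35, 11.35, 11.51 and 10.95 in the EEDS series and 11.50, 11.56, 11.54 and 11.23 in the helveticoside series. Its log2 ratios lay between -0.40 and 0.16. XRCC3, the partner of RAD51C, measured 11.26, 10.69, 11.44 and 11.67 in the EEDS series and 11.41, 11.21, 11.55 and 12.14 in the helveticoside series. It lay below vehicle at the low doses and above it at the middle and top doses, with log2 ratios of 0.41 and 0.73 at the top. XRCC2 had log2 ratios from -0.52 to -0.08, within the difference of 1.65 between its 2 vehicle controls.

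RAD52, which anneals single strands, had log2 ratios from -0.13 to 0.32. RAD54L, a motor that drives strand exchange, measured 10.38, 10.35, 9.64 and 9.63 in the EEDS series and 10.12, 10.14, 9.45 and 9.80 in the helveticoside series. RAD54B, its relative, measured 9.15, 9.66, 9.001 and 8.52 in the EEDS series and 9.41, 9.54, 8.70 and 8.53 in the helveticoside series. At the top doses the log2 ratio was -0.75 and -0.32 for RAD54L and -0.64 and -0.88 for RAD54B, and no trend was called. BLM, the helicase that dissolves joined molecules, measured 10.89, 10.68, 10.31 and 10.81 in the EEDS series and 11.12, 10.52, 10.19 and 10.80 in the helveticoside series. BRIP1, the helicase that binds BRCA1, measured 7.00, 7.06, 6.80 and 7.15 in the EEDS series and 6.67, 6.49, 6.14 and 6.63 in the helveticoside series. Both helicases were lowest at the middle dose of each agent, as was EXO1 among the mismatch repair genes.

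In the end resection group, NBN fell under both agents and the other subunits of its complex did not pass the test. NBN, which brings the complex to breaks, measured 8.64, 8.65, 8.15 and 7.33 in the EEDS series and 8.94, 8.75, 7.94 and 7.45 in the helveticoside series. The lowest EEDS dose gave the level of its vehicle control, and the middle and top doses of both agents lay below theirs. The NBN slope was -0.44 per step under EEDS (SE 0.104, limma adjusted p = 0.0457) and -0.53 under helveticoside (limma adjusted p = 0.0367), where the call was lost with the authors' processed values (limma adjusted p = 0.143).

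RAD50, the long coiled-coil subunit, measured 9.72, 10.62, 10.12 and 9.06 in the EEDS series and 10.38, 10.00, 9.90 and 9.38 in the helveticoside series. On the probes used, its log2 ratio of 0.89 at 1.25 μg/mL EEDS was the highest of any member on any treated array. At the top doses the RAD50 ratio was -0.66 and -1.002. RBBP8, which starts resection with the complex, measured 10.04, 10.49, 10.35 and 9.79 in the EEDS series and 10.34, 10.17, 10.19 and 9.89 in the helveticoside series. MRE11, the nuclease, stayed between -0.29 and 0.33 on the log2 ratio scale. At 1.25 μg/mL EEDS all 4 resection genes were at or above vehicle, and at 60 nM helveticoside all 4 were below it.

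Among the Fanconi genes, FANCF, FANCG and FANCD2 fell under both agents, and FANCF had the lowest log2 ratios of the list at both top doses. FANCF measured 11.26, 9.93, 9.28 and 6.73 in the EEDS series and 11.12, 10.28, 9.68 and 7.41 in the helveticoside series. Each dose was lower than the one before, and the step from the middle to the top dose was the largest in both series. The FANCF slope was -1.42 per step under EEDS (95% interval -2.00 to -0.85, limma adjusted p = 0.0207) and -1.17 under helveticoside (95% interval -1.75 to -0.60, limma adjusted p = 0.0360). A second FANCF probe gave log2 ratios of -4.35 and -3.47 at the top doses, and both probes were well above background on all 8 arrays.

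FANCG, a scaffold subunit of the core complex, measured 12.90, 11.79, 11.48 and 10.82 in the EEDS series and 12.47, 12.32, 11.47 and 10.93 in the helveticoside series. Its log2 ratio was already -1.11 at the lowest EEDS dose and was -0.14 at the lowest helveticoside dose. The FANCG slope was -0.65 per step under EEDS (SE 0.0946, limma adjusted p = 0.0180) and -0.55 under helveticoside (limma adjusted p = 0.0291). FANCL, the ubiquitin ligase subunit, measured 11.60, 11.89, 11.56 and 10.27 in the EEDS series and 11.65, 11.25, 11.31 and 10.63 in the helveticoside series. Its reduction of 2.52-fold and 2.03-fold came at the top doses, and its trends were not called, with limma adjusted p = 0.139 and 0.312.

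FANCC and FANCE, which form part of the core with FANCF, did not pass the test. The log2 ratios of FANCC lay between -0.13 and 0.30 and those of FANCE between -0.29 and 0.43. FANCA, a further scaffold subunit, had log2 ratios from -0.82 to -0.41 on its brightest probe. Its other probes gave 0.21 and 2.15 at 20 μg/mL EEDS and -0.03 and 0.92 at 60 nM helveticoside, so the direction of FANCA depended on the probe. The FANCA probe with 0.21 and -0.03 was printed 10 times, while the brightest probe was a single spot.

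FANCD2, the protein that receives ubiquitin at damaged forks, measured 10.15, 9.66, 9.34 and 8.97 in the EEDS series and 9.99, 9.45, 8.93 and 8.87 in the helveticoside series. Every step was downward under both agents. The FANCD2 slope was -0.39 per step under each agent (SE 0.0678, limma adjusted p = 0.0248 under EEDS and 0.0294 under helveticoside). Both calls were lost with the mean of its 3 probes (limma adjusted p = 0.0764 and 0.0559). FANCI, its partner, measured 11.69, 11.85, 10.91 and 10.70 in the EEDS series and 12.01, 11.97, 11.21 and 10.91 in the helveticoside series. FANCI stayed near vehicle at the lowest doses and was 1.99-fold and 2.14-fold lower at the top doses, with limma adjusted p = 0.0667 and 0.0719.

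**Figure D2:**
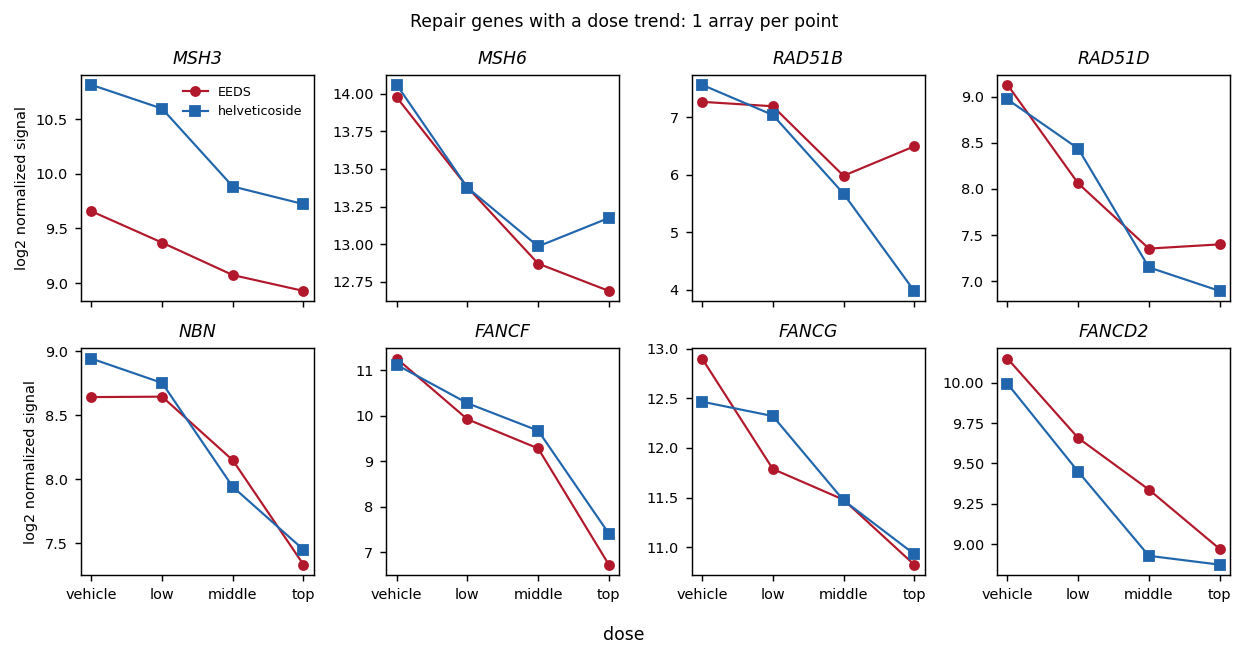
Normalized log2 signal (vertical axis, a scale of its own for each gene) of the 8 repair genes with a called dose trend, on the vehicle control and at the low, middle and top dose (horizontal axis) of EEDS (red circles) and helveticoside (blue squares), 1 array per point. FANCF went from 11.26 to 6.73 under EEDS and from 11.12 to 7.41 under helveticoside, and the RAD51B point at 60 nM was not well above background.

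Over the 32 members, 14 were below vehicle on all 6 treated arrays, beside 16.5% of all genes. MSH3, PMS2, FANCF, FANCG and FANCD2 were lower at each successive dose in both series. Only BARD1, XRCC3, MLH3 and FANCE were above vehicle at both top doses, and none of these 4 had a called trend. The share of all genes is not given for either of these patterns. The limma fit called a difference between the agents' slopes for 0 members after adjustment over all genes. At an unadjusted p under 0.05, RAD51B was the 1 member of 32 with a difference, beside 2.76% of all genes. The RAD51B fit includes the value at 60 nM that was not well above background, and the EEDS slope minus the helveticoside slope was 0.86 (95% interval 0.20 to 1.52, limma adjusted p = 1). The dose steps of the agents were not matched in content of helveticoside, so this compares trends per step and not equal doses. Over the members, the 95% intervals of the difference reached from -1.06 to 1.52 log2 per step.

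**Figure D3:**
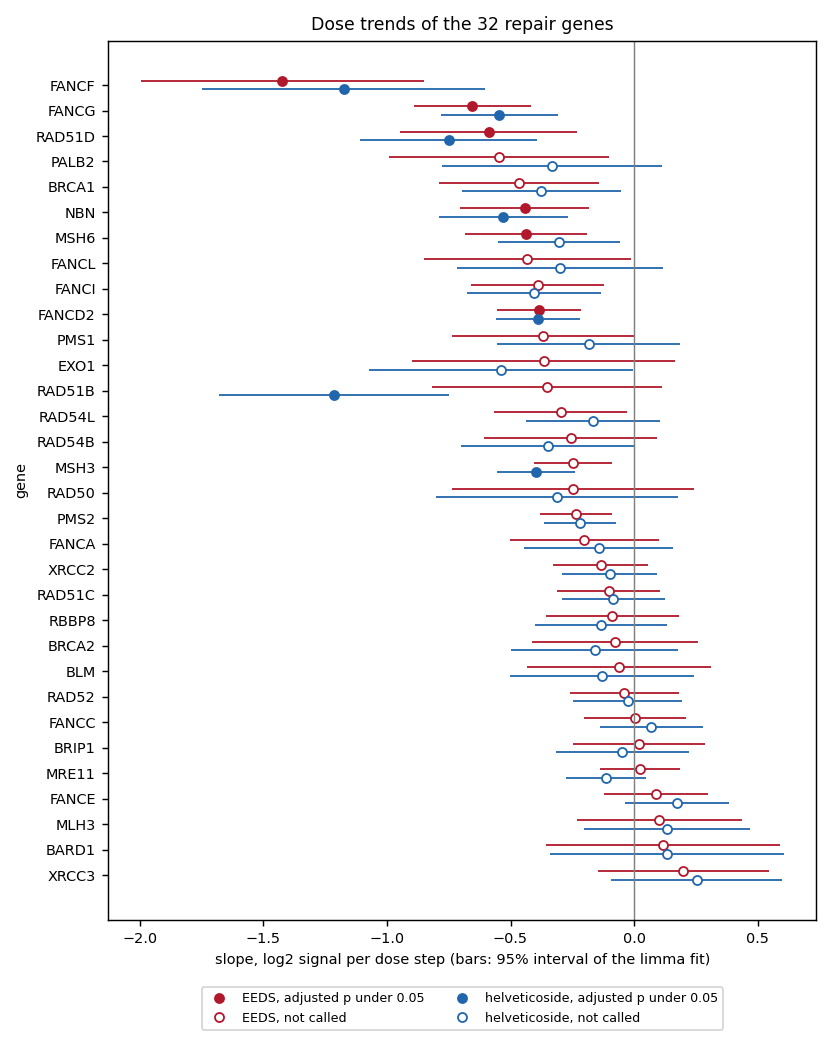
Slope of log2 signal per dose step (horizontal axis) with its 95% interval from the limma fit for each of the 32 repair genes (vertical axis, ordered by the EEDS slope), under EEDS (red) and helveticoside (blue). Filled points had an adjusted p under 0.05: 6 for EEDS and 7 for helveticoside, all to the left of 0.

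The precision of one array could be seen for 7 members whose probe was printed 10 times. The SD between spots of one array was 0.0273 to 0.244 on the log2 scale, with a median of 0.0590 over those genes and arrays. The other 25 members rested on a single spot per array, for which the scanner software gave a median error of 0.145. These errors cover the spot and not the culture or the hybridization.

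For 8 members the arrays carried more than 1 probe, 21 in all, and FANCA was the 1 gene whose probes had opposite signs at the top doses. The 3 RAD51D probes gave log2 ratios of -1.73, -2.07 and -0.62 at 20 μg/mL EEDS and -2.07, -2.01 and -0.15 at 60 nM helveticoside. Each of these probes was assigned to a different transcript of the gene. For FANCD2 the probe used gave -1.18 and -1.12, and the dimmer probes gave -0.64 and -0.34 under EEDS and -1.63 and -0.23 under helveticoside. The second RAD51B probe was not well above background on any array.

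**Figure D4:**
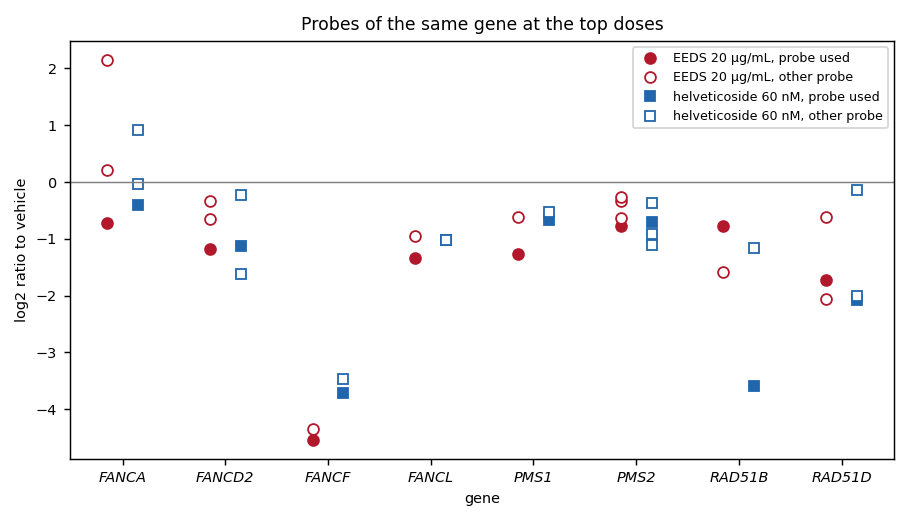
Log2 ratio to vehicle (vertical axis) at 20 μg/mL EEDS (red circles) and 60 nM helveticoside (blue squares) for each probe of the 8 repair genes with more than 1 probe (horizontal axis); filled symbols are the brightest probe, which was used. Both FANCF probes lie at -3.47 or lower, and the FANCA probes lie on both sides of 0; the open RAD51B symbols and its filled square were not well above background.

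The members were set beside 61 other genes of DNA repair and damage signalling and 32 tested genes of proliferation. The 61 were not all of the members' own pathways. They included end joining genes, such as XRCC4, XRCC5 and LIG4, and checkpoint genes, such as ATR and CHEK1. The median log2 ratio of the 32 members was -0.10, -0.31 and -0.72 from the low to the top dose of EEDS and -0.34, -0.60 and -0.69 for helveticoside. For the other repair genes it was -0.05, -0.23 and -0.05 under EEDS and -0.19, -0.35 and -0.23 under helveticoside. The proliferation genes had medians of -0.31, -0.62 and -0.34 under EEDS and -0.11, -0.48 and -0.18 under helveticoside, and were thus lowest at the middle doses. Over all genes tested the medians lay between -0.04 and 0.02. When each array was scaled to its 75th percentile instead, the median over all genes moved to -0.36 at 20 μg/mL EEDS and -0.18 at 60 nM helveticoside, beside -0.77 and -0.59 for the members.

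Of the other repair genes, 11 of 61 fell under EEDS, beside 7.85% of all genes. Under helveticoside 7 fell, all of them among those 11, beside 5.80% of all genes. None rose, beside 7.27% and 5.48% of all genes. At the top doses 13 were more than 2-fold lower under each agent, beside 14.5% and 12.8% of all genes. More than 2-fold higher were 3 under EEDS and 2 under helveticoside, beside 13.3% and 10.8% of all genes. The highest was LIG4, with log2 ratios of 2.91 and 2.39, which was well above background on only 2 arrays and was not called. ABRAXAS1, the scaffold that joins BRCA1 to a deubiquitinase, had log2 ratios of -2.81 at 20 μg/mL EEDS and -3.21 at 60 nM helveticoside, with limma adjusted p = 0.0144 and 0.0165. BABAM2 and BRCC3, subunits of the same assembly noted after their values were seen, had log2 ratios of -1.33 and -1.13 under EEDS and -1.61 and -1.08 under helveticoside, and both fell under both agents. UIMC1 and BABAM1, also of this assembly, had 0.61 and -0.51 under EEDS and 0.07 and -0.36 under helveticoside. Neither UIMC1 nor BABAM1 was called under either agent. EME1, a subunit of the MUS81 junction nuclease, had log2 ratios of -2.26 and -2.42 and fell under both agents.

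MUS81 itself had log2 ratios of -2.08 and -1.39 and fell under EEDS (limma adjusted p = 0.0235), but its helveticoside trend was not called (limma adjusted p = 0.0661). LIG1, the ligase that seals repair patches and replicated strands, had log2 ratios of -1.96 and -2.05 and fell under both agents. The helicase gene RECQL5 had -2.22 and -1.36 and fell under EEDS, with limma adjusted p = 0.124 under helveticoside. FAN1, a nuclease that works with FANCD2 and FANCI, had -1.55 and -1.91 and was not called (limma adjusted p = 0.0661 and 0.0529).

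Among the proliferation genes, 3 of 32 fell under EEDS and 1 under helveticoside, beside 7.85% and 5.80% of all genes. CDK1, the mitotic kinase, was the 1 that rose under EEDS, beside 7.27% of all genes. Its log2 ratio was 1.47 at 20 μg/mL. CDC45, a part of the replicative helicase, fell under both agents, with log2 ratios of -1.28 and -0.95. E2F2, a transcription factor of the S phase program, fell under EEDS (-1.48) and had -0.68 at 60 nM helveticoside. The replication genes MCM4 and GINS2 had log2 ratios of -1.37 and -1.23 under EEDS and -1.20 and -1.08 under helveticoside without a called trend, and E2F8, a repressor of that program, had 1.04 and 1.28. The part of these changes in the levels of the repair genes was not tested.

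**Figure D5:**
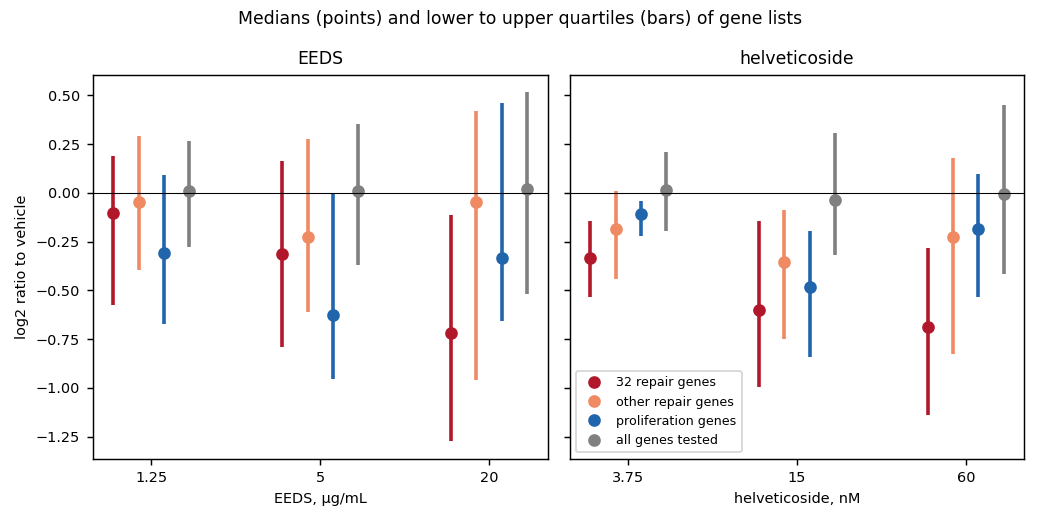
Median log2 ratio to vehicle (points) with lower and upper quartiles (bars) of the 32 repair genes, 61 other repair genes, 32 proliferation genes and all 19046 genes tested, at each dose of EEDS in μg/mL (left) and helveticoside in nM (right). At the top doses the repair genes sit at -0.72 and -0.69, the proliferation genes at -0.34 and -0.18, and all genes near 0.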

How the data were processed

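Each vehicle control and dose had 1 single-dye Agilent array (8 arrays), mapped to its agent and dose by the sample labels. For every spot, the authors deposited intensity values on a linear scale from the scanner software, including a background-subtracted processed signal, and a table of processed intensity values that, judged from its values, had been quantile-normalized within each series. No slide, scan or date columns were given, so only the series could be told apart as a batch.

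Here, after removal of control and outlier spots, the processed signals of a probe's spots were averaged, quantile normalization was applied across the 8 arrays, and log2 values were taken. Of 34127 probes, 24812 were named through transcript accessions on GRCh38.p14, giving 19056 genes, each represented by its brightest probe. A gene was kept where its signal reached 1.4 times the local background on at least 1 array of each series, which left 19046, and undetected values were set to the lowest detected signal of the array. The trend model in limma 3.58.1 (R 4.3.3 with statmod 1.5.0) held, for each series, an intercept and a slope, which left 4 residual degrees of freedom, and p-values were adjusted by the Benjamini-Hochberg procedure over all 19046 genes. The trend script was tested on simulated data. Where a treated array was not well above background, the text gives a bound for the fold. The counts, medians, main trend fit and figures keep the measured value.

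Every member is named. Values on all arrays are given for members with a called trend or more than 2-fold changed at both top doses, and for the 2 brightest of each role, and 6 genes of each comparison list are named by the size of their top-dose ratios. The members, lists and tests were chosen with earlier results of these data known. The alternatives were 75th percentile scaling, normexp correction with an offset of 50, the scanned signal, the authors' values, other filters, the mean of all probes, the other vehicle control, other trend designs and leaving out a dose. Tables and figures were made with Python 3.11.15, pandas 2.3.3 and matplotlib 3.10.9.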

Additional observations from a re-analysis of the deposited data

How the results depend on the processing

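At the top EEDS dose, 10 members were more than 2-fold lower, and the count was 9 to 11 under the other alternatives except against the vehicle control of the helveticoside series, where it was 16. At the top helveticoside dose, the count of 13 was 5 with the authors' processed values and 8 against the EEDS vehicle control. It was 9 with normexp correction, 9 with the scanned signal, 10 with 75th percentile scaling and 12 with the mean of all probes. The count of falling trends under EEDS was 6, and it was 11 with the authors' processed values, 10 with the filter on the well-above-background call, 14 with 1 common slope for both agents and 3 on linear dose. Under helveticoside it was 7, and it was 4 with the authors' processed values, 14 with 1 common slope and 1 on linear dose. It was 0 for both agents with the 4 arrays of the series alone, and 0 without the lowest, without the middle or without the top dose of each series, where fewer arrays remained. No share of all genes is given for these alternatives, so the members' counts under them cannot be set against all genes. The slopes behind the 13 calls stayed below 0 in all 15 alternatives of the fit, and the calls held in 8 of 15 for RAD51D under each agent and RAD51B under helveticoside (limma adjusted p from 0.00569 to 0.280 for RAD51B), in 9 or 10 for NBN, FANCD2, FANCG, MSH6 and MSH3, and in 11 for FANCF. At 60 nM the log2 ratio changed sign against the EEDS vehicle control for MSH3 (to 0.0652), XRCC2 (to 1.27), MRE11 (to 0.63), FANCC and MLH3, and at 20 μg/mL against the helveticoside vehicle control for MRE11 (to -0.78) and FANCC. With the mean of all probes FANCA changed sign under both agents (to 0.55 and 0.16), and with 75th percentile scaling BLM and BRIP1 did at 20 μg/mL. Raising values not well above background to the lowest signal well above it, an alternative chosen after the data were seen, gave 9 falling trends under each agent. For top-dose ratios of single members, 96 values moved by more than the spread used and 479 did not. The slope difference was called for 0 members throughout, and the causes of these changes were not tested. One array per dose and, for 25 members, one spot per array limit the precision of every value, and RAD51B and BRCA2 lay near the background.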
